A study of Mus musculus with 6 samples.

Results

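Among cells of skin-draining lymph nodes enriched with CD11b and CD11c beads, 1820 of 24721 cells carried RNA of at least 2 of the genes Ctnnd2, Scn3a and Klri1 and are described here as the Ctnnd2/Scn3a/Klri1 cells. The whole series holds 53259 cells that pass the same quality limits. A cell was kept if it had 500 or more UMIs (unique molecular identifiers, each standing for 1 captured RNA molecule) and 300 or more genes, and if no more than 10% of its UMIs were mitochondrial. It was selected when at least 2 of the 3 genes had a UMI, when it had no UMI of the B cell gene Cd79a or the T cell gene Cd3e, and when it had fewer than 2 UMIs of Fscn1, a gene of migratory dendritic cells. The selection yielded 513 cells from the YUMMER1.7 library, 852 from the YUMM1.7 library and 455 from the naive library. The 3 genes and these limits were taken from an earlier description of the same cells, so the differences that set the cells apart from others are given as description and were not tested.

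The nodes were axillary and inguinal nodes from C57Bl/6 mice bearing YUMMER1.7 tumours, bearing YUMM1.7 tumours or free of tumour (naive). YUMM1.7 is a melanoma cell line of the mouse, and YUMMER1.7 was derived from it by ultraviolet mutagenesis and is the more immunogenic line. Nodes of several mice were pooled and digested with collagenase, CD11b- or CD11c-bearing cells were taken with magnetic beads, and the cells entered 10x GEM-X 3′ v4 chemistry. There was 1 library per condition, so differences between the conditions have no replicate check and carry no p-value. Ranges in brackets are exact 95% intervals and cover counting error only.

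Conventional dendritic cells of type 2 (cDC2) take up antigen and present it on MHC class II to CD4 T cells. They depend on the growth factor receptor Flt3, express Zbtb46 and Irf4, and carry the inhibitory receptor Sirpa, while cDC1 carry Xcr1 and Clec9a. In mouse spleen, cDC2 have been divided into cells with the transcription factor T-bet (gene Tbx21) and cells with the lectins Clec10a, Cd209a and Clec12a and a more monocyte-like programme. Ctnnd2 encodes delta-catenin, an armadillo-repeat protein of cell junctions known mainly from neurons. Scn3a encodes an alpha subunit of voltage-gated sodium channels, also known mainly from neurons, and Klri1 encodes a lectin-like receptor known from natural killer (NK) cells of rodents.

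The enriched libraries held 6801 kept cells for YUMMER1.7, 7453 for YUMM1.7 and 10467 for naive, with total UMI counts of 78551522, 78305030 and 86471908. Depth per kept cell differed between the conditions, with medians of 10491 UMIs in YUMMER1.7, 9702 in YUMM1.7 and 6953 in naive. The Ctnnd2/Scn3a/Klri1 cells were deeper than the average cell, with medians of 14265, 13734 and 11451 UMIs in the same order. Any pair of the 6 libraries of the series shared 6 to 49 cell barcodes, at most 0.431% of the smaller library, and no barcode of a selected cell was shared by 2 enriched libraries. Scrublet marked 1.72% of YUMMER1.7 cells, 1.96% of YUMM1.7 cells and 3% of naive cells as doublets; none were removed, and 29, 33 and 22 of the selected cells lay above the 95th percentile of the doublet score.

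The Ctnnd2/Scn3a/Klri1 cells made up a larger share of the kept cells in both tumour libraries than in the naive library. They were 7.54% [6.93 to 8.20] of kept cells in YUMMER1.7, 11.4% [10.7 to 12.2] in YUMM1.7 and 4.35% [3.96 to 4.76] in naive. The YUMMER1.7 share was 1.74 times [1.53 to 1.97] the naive share, the YUMM1.7 share was 2.63 times [2.34 to 2.95] the naive share, and the YUMMER1.7 share was 0.660 times [0.590 to 0.737] the YUMM1.7 share. Because a cell with more UMIs is more likely to show 2 of 3 genes, every cell was also thinned to 2000 UMIs and the selection was made again. The shares were then 2.25% [1.89 to 2.65] in YUMMER1.7, 3.53% [3.10 to 4.003] in YUMM1.7 and 1.79% [1.53 to 2.09] in naive. At this even depth the YUMM1.7 share was 1.97 times [1.604 to 2.42] the naive share, and the YUMMER1.7 share was 1.25 times [0.993 to 1.58] the naive share, an interval that includes 1. Among cells with neither Cd79a nor Cd3e the shares were 9.29% in YUMMER1.7, 13.1% in YUMM1.7 and 5.73% in naive. The tumour and any other difference between these single libraries cannot be told apart.

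**Figure D1:**
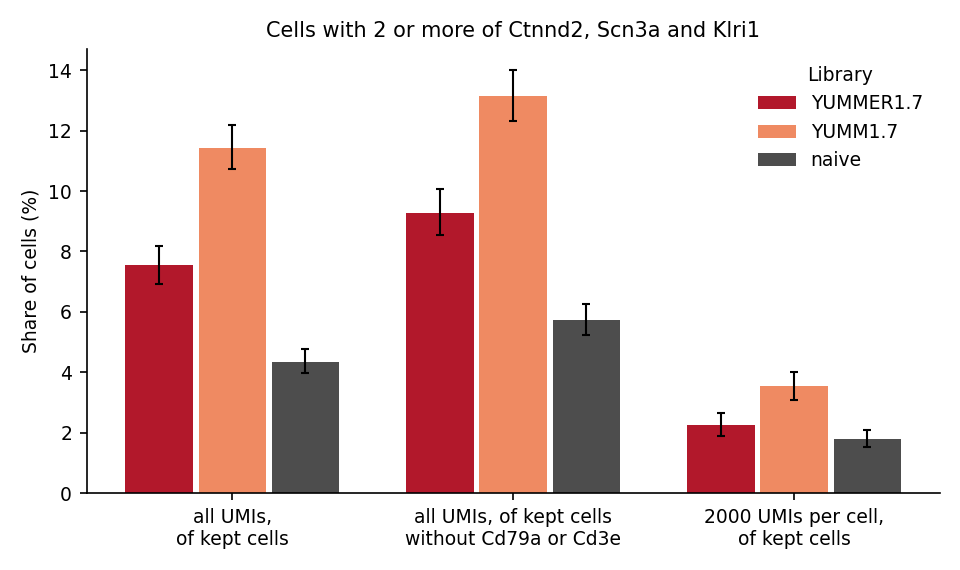
Share of Ctnnd2/Scn3a/Klri1 cells in the YUMMER1.7, YUMM1.7 and naive enriched libraries, in percent, over all kept cells, over kept cells without Cd79a or Cd3e, and over kept cells thinned to 2000 UMIs. Bars start at 0 and lines are exact 95% binomial intervals for counting error; YUMM1.7 is highest on each denominator and YUMMER1.7 and naive overlap after thinning.

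Of the 3 genes that define the cells, Ctnnd2 was the most widely detected in the tumour libraries. Ctnnd2 spans 856749 bp on chromosome 15 (mm10, 30172593 to 31029341, plus strand), Scn3a spans 110510 bp on chromosome 2 (65457118 to 65567627, minus strand) and Klri1 spans 19915 bp on chromosome 6 (129697218 to 129717132, minus strand). Within the selected cells, Ctnnd2 stood at 323 CPM (UMIs summed over the cells and scaled to a total of 1000000) in YUMMER1.7, 348 CPM in YUMM1.7 and 299 CPM in naive, and had a UMI in 94.3%, 94.1% and 89.7% of them. Scn3a stood at 130, 125 and 144 CPM in the same order and was detected in 61.6%, 56.9% and 55.2% of the cells. Klri1 stood at 148 CPM in YUMMER1.7, 204 CPM in YUMM1.7 and 318 CPM in naive, with detection in 77.4%, 85.0% and 90.1%. Ctnnd2 and Scn3a thus varied little between libraries, and Klri1 was highest in naive. These levels describe the selection itself.

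All 3 genes were found together in 171 of the 513 YUMMER1.7 cells (33.3%), 307 of the 852 YUMM1.7 cells (36.0%) and 159 of the 455 naive cells (34.9%). The most common pair was Ctnnd2 with Klri1, in 38.4% of selected cells in YUMMER1.7, 43.1% in YUMM1.7 and 44.8% in naive. Ctnnd2 with Scn3a made up 22.6%, 15.02% and 9.89%, and Scn3a with Klri1 5.65%, 5.87% and 10.3%. Just outside the limit, 517 YUMMER1.7, 738 YUMM1.7 and 647 naive cells showed 1 of the 3 genes. The Fscn1 limit alone left out 62, 121 and 137 cells with at least 2 of the genes, whose level of the migration receptor Ccr7 was 336, 356 and 376 CPM in YUMMER1.7, YUMM1.7 and naive.

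Levels of some other genes were graded over the number of the 3 genes detected. Dscam, an adhesion molecule of the immunoglobulin superfamily known from neurons, stood in YUMMER1.7 at 1345 CPM in cells with all 3 genes, 911 CPM with 2, 344 CPM with 1 and 42.0 CPM with none. Clec4a4, the lectin DCIR2 of splenic cDC2, stood there at 78.3, 59.3, 25.2 and 5.69 CPM. The monocyte and macrophage lysozyme Lyz2 ran the other way, at 867, 1302, 2984 and 9128 CPM. Cells with 1 of the genes therefore lay between the selected cells and the rest for all 3 of these genes, in YUMM1.7 and naive as well. The last step of Dscam was small in naive, at 267 CPM with 1 of the genes and 242 CPM with none. Flt3 stood at 227, 195, 167 and 21.5 CPM in YUMMER1.7 and at 326, 289, 211 and 52.4 CPM in naive over the same steps. Sirpa was not graded, at 401, 392, 327 and 450 CPM in YUMMER1.7, and neither was Tbx21 in naive, at 51.8, 41.3, 29.3 and 57.1 CPM.

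The cDC2 label was set against marker lists of the cell types that the nodes could hold. A gene was counted as present when it had a UMI in at least 10% of selected cells. All 12 cDC2 genes on the list were present in each library, and 15, 14 and 14 of 15 pan-dendritic-cell genes were present in YUMMER1.7, YUMM1.7 and naive. Among all other kept cells, 9 of 12 cDC2 genes and all 15 pan-dendritic-cell genes were present in each library. The cDC2 list summed to 2781, 2814 and 2997 CPM in the selected cells, against 2896, 3097 and 2405 CPM in all other kept cells. The pan-dendritic-cell list summed to 26634, 26680 and 28554 CPM, against 15864.5, 17205 and 13491 CPM. Flt3 was detected in 86.2%, 90.4% and 90.3% of the selected cells and Sirpa in 96.1%, 96.6% and 95.8%. Zbtb46, a transcription factor of conventional dendritic cells, was detected in 76.6%, 81.2% and 81.3%, at 137, 183 and 204 CPM. Genes of dendritic cells and of cDC2 were thus detected in the selected cells of all 3 libraries. The count of pan-dendritic-cell genes present did not set these cells apart from the other kept cells.

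Most lists of other cell types summed to less in the selected cells than in all other kept cells, though not the cDC1 list in YUMMER1.7 and naive. The cDC1 chemokine receptor Xcr1 stood at 17.2 CPM in YUMMER1.7, 15 CPM in YUMM1.7 and 21.2 CPM in naive. In each library 5 of 10 cDC1 genes were present, against 4, 5 and 5 in all other kept cells. The cDC1 list summed to 820, 863 and 1022 CPM in the selected cells, against 761, 892 and 824 CPM in all other kept cells and 6093, 6226 and 7167 CPM in the cDC1. Siglech, a receptor of plasmacytoid dendritic cells, had a UMI in 2.53%, 2.82% and 5.93% of cells. Of 12 genes on a list of plasmacytoid and related dendritic cells, 5, 6 and 6 were present, against 7, 6 and 5 in all other kept cells. That list summed to 554, 468 and 593 CPM, against 921, 932 and 780 CPM in all other kept cells. Of 10 macrophage genes 4 were present in each library, against 5, 5 and 6 in all other kept cells. Of 10 B cell genes 3, 3 and 2 were, against 7, 4 and 4. None of 10 T cell genes reached 10% of selected cells in any library, against 3, 2 and 9 in all other kept cells. The selection allowed no UMI of Cd3e or Cd79a, which bears on the T and B cell counts. None of 7 mast cell genes reached 10% in the selected cells or in all other kept cells. Of 10 NK cell genes 2 did in each library, against 2, 2 and 4 in all other kept cells, although Klri1 is known from NK cells. The mast cell counts thus did not set the selected cells apart, nor did the NK cell counts in the tumour libraries. The sum of the neutrophil list was 318, 211 and 293 CPM in the selected cells, against 12859, 2741 and 4372 CPM in all other kept cells. The monocyte list summed to 3651, 2783 and 2641 CPM, against 10293, 9744 and 4621 CPM in all other kept cells. Of its 10 genes 6 were present in each library, against 10, 10 and 7 in all other kept cells. The list of CCR7-positive migratory dendritic cells summed to 631, 635 and 959 CPM, against 3612, 3837 and 5827 CPM in the other cells, which the Fscn1 limit bears on.

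**Figure D2:**
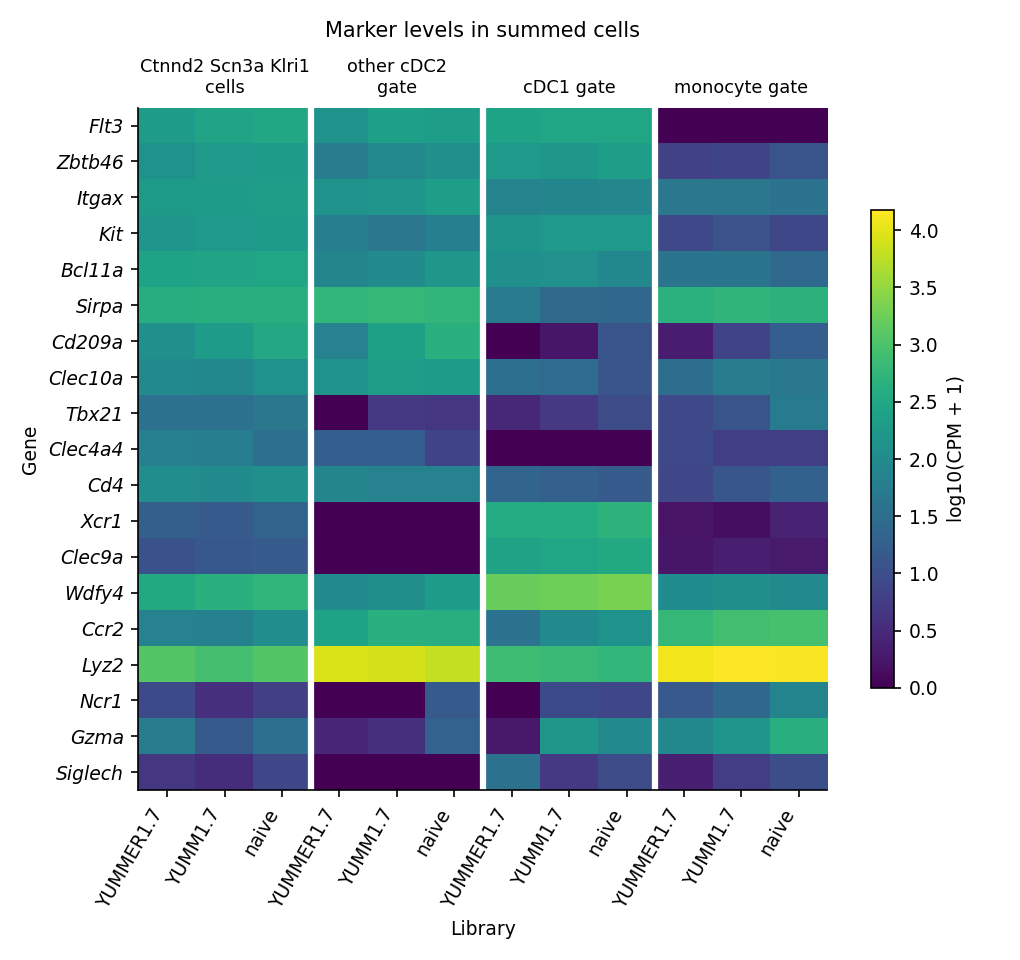
Levels of 19 genes as log10(CPM + 1) in the Ctnnd2/Scn3a/Klri1 cells, the other cDC2, the cDC1 and the monocytes of the YUMMER1.7, YUMM1.7 and naive libraries. Each cell of the heatmap is 1 gene in 1 cell group of 1 library; Lyz2, for instance, stands at 1156 CPM in the selected YUMMER1.7 cells and 8599 CPM in the other cDC2.

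For a closer comparison, other cDC2 were taken by the same quality limits and exclusions, none of the 3 genes, at least 1 UMI each of Flt3 and Sirpa, none of Xcr1, Clec9a or Siglech, and fewer than 2 UMIs of the monocyte gene Ly6c2. This gate held 83 YUMMER1.7, 152 YUMM1.7 and 153 naive cells, with median UMIs of 12835, 10235.5 and 8798. Having none of 3 genes favours shallow cells, and having Flt3 and Sirpa favours deep ones. The selected cells made up 86.1% of both groups together in YUMMER1.7, 84.9% in YUMM1.7 and 74.8% in naive.

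In each library the Ctnnd2/Scn3a/Klri1 cells carried more RNA of Dscam, Adam23, Tbc1d4 and a part of the cell-division genes than the other cDC2, and less RNA of a part of the monocyte genes. A gene was called when its CPM differed by 2-fold or more in the same direction in all 3 libraries and it had at least 30 UMIs over the groups compared in each; the call rests on the size of the ratio alone. Of 9710 genes, 231 (2.38%) were called higher and 242 (2.49%) lower. Of 22 proliferation genes 9 were higher and none lower, of 11 catenin and adhesion genes none was called, and of 10 genes of trafficking and position 1 was higher and 3 were lower. Nothing is read from these counts, since the cells were chosen on the same libraries. Dscam stood at 1057 CPM in the selected YUMMER1.7 cells, 1113 CPM in YUMM1.7 and 907 CPM in naive, against 145, 254 and 183 CPM in the other cDC2, which gave log2 ratios of 2.86, 2.13 and 2.31. Adam23, a catalytically inactive member of a protease family that acts in neuronal adhesion, stood at 584, 715 and 1176 CPM, against 123, 238 and 377 CPM. Tbc1d4, a GTPase-activating protein of vesicle trafficking, stood at 1065, 1154 and 1099 CPM, against 229, 282 and 365 CPM. These 3 genes were picked for their high ratios in the same cells, so their separation from the other cDC2 is no added support.

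Further genes that were higher in the selected cells had varied known roles. Ppp1r14a, an inhibitor of myosin phosphatase, stood at 151, 119 and 63.5 CPM in the selected YUMMER1.7, YUMM1.7 and naive cells, against 19.6, 7.26 and 5.07 CPM in the other cDC2. Bbs9, a subunit of the ciliary BBSome, stood at 200, 294 and 272 CPM, against 35.4, 42.9 and 66.0 CPM. Il1r2, the decoy receptor of interleukin 1, stood at 1088, 1076 and 911 CPM, against 363, 256 and 339 CPM. Wdfy4, needed for cross-presentation by cDC1, stood at 349, 440 and 559 CPM, against 95.9, 117 and 204 CPM. Cd7, a surface molecule of T and NK cells, stood at 120, 96.1 and 59.8 CPM, against 14.0, 25.7 and 12.3 CPM. Also among the highest-ranked genes were Arhgap6, Rundc3b, Frmd5, P2ry10, Immp2l and the mitotic Ube2c. The 15 highest-ranked genes spanned 2672 to 931499 bp of the genome, with a median of 150386 bp, and the 15 lowest-ranked spanned 2068 to 415254 bp, with a median of 24167 bp.

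The genes lower in the selected cells included monocyte genes, although Atxn1 and Pakap ranked first. Lyz2 stood at 1156 CPM in YUMMER1.7, 881 CPM in YUMM1.7 and 1165 CPM in naive, against 8599, 7995 and 6200 CPM in the other cDC2, for log2 ratios of −2.89, −3.18 and −2.41. Ccr2, the receptor that monocytes use to leave bone marrow, stood at 70.9, 67.8 and 110 CPM, against 265, 448 and 433 CPM. Of 9 monocyte genes tested, 5 were lower in all 3 libraries and none higher, and of 7 macrophage genes 4 were lower, beside 2.49% of all genes. Csf1r, the receptor of macrophage growth factor, stood at 108, 111 and 91.1 CPM, against 290, 302 and 210 CPM, and the fractalkine receptor Cx3cr1 at 49.9, 55.3 and 61.7 CPM, against 173, 198 and 163 CPM. Ms4a6d, Gda, the chemokine Cxcl2, Ly6i and complement C3 were lower as well, and so were Atxn1, Pakap, Apol7c, Zfyve9, Klra2, Fgd4 and Ankrd33b. Whether monocytes in the comparison gate have a part in these ratios was not tested.

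A second comparison gate, with at least 2 UMIs of Cd209a in place of Flt3 and Sirpa, held 13 YUMMER1.7, 55 YUMM1.7 and 78 naive cells. Against it, 318 genes were higher in the selected cells in all 3 libraries and 86 were lower. Of the 231 genes higher against the first gate, 136 were shared, and of the 242 lower genes, 47 were shared. Of the 15 highest-ranked genes, 10 kept the call, the others being Cd7, Arhgap6, Frmd5, P2ry10 and Immp2l. Of the 15 lowest-ranked genes, 5 kept it, namely Lyz2, Gda, Ms4a6d, Ccr2 and Cxcl2. Apol7c and Ankrd33b were higher in the selected cells than in this gate in all 3 libraries, and Pakap, Atxn1, Klra2, Fgd4 and C3 in some of them. This gate also carried Lyz2, at 6488, 5720 and 5048 CPM in YUMMER1.7, YUMM1.7 and naive.

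**Figure D3:**
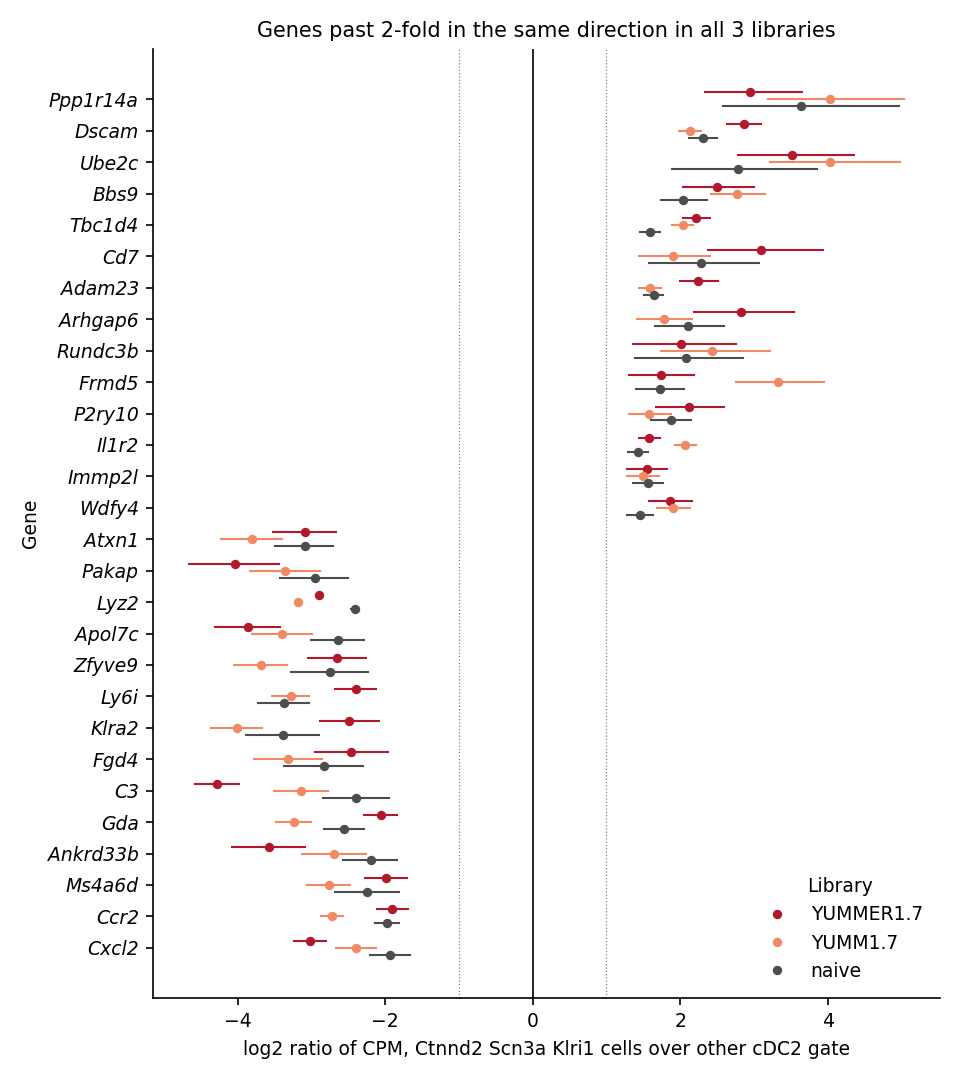
Log2 ratio of the Ctnnd2/Scn3a/Klri1 cells over the other cDC2 for 14 of the highest-ranked and 14 of the lowest-ranked genes in the YUMMER1.7, YUMM1.7 and naive libraries. Points are 1 library each and lines are exact 95% intervals for counting error; every point lies on the same side of 0 in the 3 libraries, which the choice of the genes fixes.

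The 2 programmes described for splenic cDC2 were both seen among the selected cells. Tbx21 stood at 36.1 CPM in YUMMER1.7, 37.2 CPM in YUMM1.7 and 44.8 CPM in naive, against 0, 3.96 and 3.62 CPM in the other cDC2. Taking the floor of 3 UMIs per library for the YUMMER1.7 gate, Tbx21 was at least 12.9-fold higher there, and the log2 ratios were 3.23 in YUMM1.7 and 3.63 in naive. In thinned cells Tbx21 was detected in 6.26%, 7.72% and 7.05% of the selected cells, against 1.76%, 2.95% and 8.94% of the monocytes. Clec4a4 stood at 65.7, 60.8 and 32.9 CPM, against 16.8, 16.5 and 5.80 CPM. Of 8 genes tested on a list for Esam-high and T-bet cDC2, Tbx21 and Clec4a4 were higher in all 3 libraries and the Notch target Hes1 was lower, beside 2.38% of all genes higher and 2.49% lower. The whole list summed to 500, 511 and 604 CPM in the selected cells, against 433, 484 and 601 CPM in all other kept cells. Esam itself, an adhesion molecule of splenic cDC2, stood at 6.45, 7.47 and 7.17 CPM. Cd4, which a part of splenic cDC2 carry, stood at 111, 102 and 125 CPM, against 78.2, 70.6 and 70.3 CPM, and was not called.

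Genes of the other programme were lower or not called. Of 8 genes tested on a Clec10a-type list, 5 were lower in the selected cells in all 3 libraries and none was higher, beside the same shares of all genes. The 5 were Clec12a, Lyz2, Ccr2, Csf1r and Cx3cr1. Lyz2, Ccr2 and Csf1r are also on the monocyte list, so this count partly repeats the monocyte result. The lectins Clec10a, Cd209a and Mgl2 were not called. Clec12a, an inhibitory lectin, stood at 24.3, 29.1 and 55.6 CPM in YUMMER1.7, YUMM1.7 and naive, against 84.7, 149 and 172 CPM. Clec10a, a galactose-binding lectin, stood at 93.8, 88.3 and 134 CPM, against 138, 218 and 194 CPM. Cd209a, a mouse homologue of DC-SIGN, stood at 123, 195 and 326 CPM, against 68.9, 241 and 453 CPM, above the other cDC2 in YUMMER1.7 and below them in YUMM1.7 and naive. Its detection in thinned cells was 14.7%, 20.4% and 32.2%, against 2.53%, 14.5% and 27.2%, so levels and detection ran opposite ways in YUMM1.7 and naive and no order is read there. The Cd209 genes form a family of similar sequence, and how reads that match several genes were counted is not given in the sources used here.

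Within the selected cells, Cd209a was detected in a smaller share of the cells with Tbx21 than of those without, a description with no test. Cd209a was detected in 18.6% of cells with Tbx21 and 34.3% of those without in YUMMER1.7, in 25.2% and 45.3% in YUMM1.7, and in 43.1% and 57.2% in naive. Cells with Tbx21 were the deeper ones, with median UMIs of 15828 against 13968, 14201.5 against 13672.5 and 12143 against 11347. Clec10a was detected in 44.8% of cells with Cd209a and 15.6% of those without in YUMMER1.7, in 47.2% and 12.4% in YUMM1.7, and in 48.6% and 10.95% in naive. Clec4a4 was detected in 67.9%, 53.7% and 32.1% of cells with Tbx21, against 51.2%, 46.9% and 22.5% of cells without. The pattern of the 3 selecting genes moved with these states. Cd209a was detected in 27.5% of YUMMER1.7 cells with all 3 genes, 31.3% in YUMM1.7 and 40.9% in naive, against 36.0%, 55.3% and 67.2% of cells with only Ctnnd2 and Klri1.

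MHC class II genes were high in the selected cells, while MHC class I genes were below those of the other cDC2. The 13 genes of an MHC class II list summed to 33871 CPM in YUMMER1.7, 33694 CPM in YUMM1.7 and 36044 CPM in naive, against 32201, 35554 and 35721 CPM in the other cDC2. The 15 genes of an MHC class I list summed to 6270, 5495 and 5601 CPM, against 7755, 6976 and 6405 CPM in the other cDC2 and 8868, 8492 and 8505 CPM in all other kept cells, and none of them was called against the other cDC2. Of the class II genes, H2-Ob and H2-DMb2 were higher than in the other cDC2 in all 3 libraries and none was lower. H2-Ob, a chain of the H2-O protein that restrains peptide loading, stood at 93.7, 100 and 120 CPM, against 17.7, 27.7 and 40.6 CPM. H2-DMb2, a chain of the peptide-loading factor H2-M, stood at 296, 302 and 287 CPM, against 75.4, 96.4 and 138 CPM. H2-Oa, the partner of H2-Ob, had log2 ratios of 2.01, 1.33 and 0.98 and was not called in naive. Cd86, a co-stimulator of T cells, stood at 1219, 1077 and 1538 CPM, against 631, 655 and 790 CPM, and was not called in all 3.

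Against cDC1 the cDC2 genes were higher in the selected cells, and against monocytes a part of the pan-dendritic-cell genes were. The cDC1 gate held 48 YUMMER1.7, 61 YUMM1.7 and 106 naive cells and the monocyte gate 853, 887 and 428. All 12 cDC2 genes were higher in the selected cells than in the cDC1 in every library, beside 720 of 9797 genes (7.35%), and 9 of 10 cDC1 genes were lower, beside 342 genes (3.49%). Of 15 pan-dendritic-cell genes 2 were higher and 4 lower than in the cDC1. Against the monocytes, 801 of 10469 genes (7.65%) were higher and 711 (6.79%) lower. All 10 monocyte genes were among the lower ones, 8 of 15 pan-dendritic-cell genes were higher and none lower, and 4 of 12 cDC2 genes were higher and 2 lower, with cDC2 list medians of −0.14, −0.38 and 0.06 in YUMMER1.7, YUMM1.7 and naive. These gates rest on genes of the same lists, so the counts describe the gates too.

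By a rule that ranks genes on the difference in detection between the selected cells and the other cDC2 at 2000 UMIs per cell, the genes most like the selecting genes were Dscam, Tbc1d4, Adam23, Ccnd1, Il1r2, Lyst, H2-DMb2, Bbs9, Wdfy4 and Elmsan1. Dscam was detected in 71.4% of selected YUMMER1.7 cells, 73.2% in YUMM1.7 and 61.5% in naive, against 17.7%, 20.7% and 19.7% of the other cDC2, a mean difference of 49.3 percentage points over the 3 libraries. Tbc1d4 was detected in 73.0%, 71.4% and 69.6%, against 22.8%, 27.6% and 31.3%. Adam23 was detected in 54.6%, 59.98% and 69.8%, against 16.5%, 15.9% and 29.9%, so that Dscam was lowest in naive and Adam23 highest there. Ccnd1, the cyclin of early cell-cycle entry, had a mean difference of 35.4 points and levels of 508, 538 and 432 CPM, against 132, 123 and 199 CPM in the other cDC2. Kit, the stem cell factor receptor, also stood above the other cDC2, at 156, 183 and 190 CPM against 59.6, 44.2 and 62.3 CPM.

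Outside the selected cells, RNA of the 3 genes was not spread evenly over cell groups taken by their marker genes. At 2000 UMIs per cell, Ctnnd2 was detected in 44.6% of selected cells in YUMMER1.7, 46.0% in YUMM1.7 and 41.2% in naive, and Klri1 in 24.9%, 31.2% and 40.3%. In cells with neutrophil, B cell or T cell genes, which should lack the 3 genes, the thinned shares lay between 0% and 1.34% for each gene and library. Klri1 was also found in cells with cDC1 genes, with thinned shares of 12.1% in YUMMER1.7, 9.71% in YUMM1.7 and 10.3% in naive and levels of 59.7, 59.8 and 59.7 CPM. This group leaves out the selected cells, and Klri1 is a selecting gene, so its level there and its level in the selected cells were not compared. Cells with NK genes had thinned shares of Klri1 of 5.07%, 4.89% and 3.49%, and migratory dendritic cells 6.15%, 6.41% and 6.16%. Scn3a reached 25.3, 41.8 and 20.9 CPM in migratory dendritic cells, and Ctnnd2 reached 43.5, 105 and 47.3 CPM in the 21, 19 and 34 cells with genes of plasmacytoid dendritic cells.

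Between the conditions, the 10 RNAs ranked highest in the selected cells of both tumour libraries were Spon1, which ranked first, and 9 genes of cell division and chromatin. With the same limits of 2-fold and 30 UMIs, the YUMMER1.7 cells had 513 of 11095 genes (4.62%) at 2-fold or more above naive and 280 (2.52%) below, and the YUMM1.7 cells had 291 of 11433 (2.55%) above and 278 (2.43%) below. Both comparisons share the naive library. In both, 194 of 11021 genes (1.76%) were higher and 133 (1.21%) were lower. Of 22 proliferation genes, 16 rose past 2-fold in YUMMER1.7 and 10 in YUMM1.7, none fell, and all 22 had a higher value than in naive in both. The list median was a log2 ratio of 1.24 in YUMMER1.7 over naive and 0.93 in YUMM1.7 over naive, beside medians over all tested genes of 0.05 and 0.06. Among the other cDC2 the same list had medians of 0.36 and −0.87, and among all other kept cells of 1.01 and 0.67.

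Named genes of this group work in chromosome segregation and chromatin. Ube2c, the ubiquitin-conjugating enzyme of the anaphase-promoting complex, stood at 159 CPM in YUMMER1.7, 129 CPM in YUMM1.7 and 50 CPM in naive. Birc5, the survivin of the chromosomal passenger complex, stood at 124, 93.5 and 37.8 CPM. Spc24, a kinetochore protein, stood at 60.2, 47.4 and 17.8 CPM, and the mitotic cyclin Ccnb2 at 54.5, 42.3 and 16.6 CPM. The naive value was the lowest for each of these genes, which their choice by rank fixes, and YUMMER1.7 was the highest. Hmgb2, a chromatin protein of dividing cells, stood at 1098, 980 and 465 CPM, with log2 ratios over naive of 1.24 in YUMMER1.7 and 1.08 in YUMM1.7. Hist1h1e, Hist1h4d, Hist1h2ab and Hist1h3c were also named by the rule, as replication histones whose near-identical copies leave their counts uncertain. Without dividing cells Hist1h3c had a log2 ratio of −0.85 in YUMM1.7 over naive.

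The share of dividing cells, taken as those with 2 or more UMIs over 11 mitotic genes, followed the same order. It was 35.9% of selected cells in YUMMER1.7, 30.6% in YUMM1.7 and 20% in naive at full depth. At 2000 UMIs per cell it was 18.8% [15.5 to 22.5], 13.9% [11.6 to 16.4] and 6.39% [4.32 to 9.05]. The tumour intervals did not overlap the naive one and overlapped each other. Among the other cDC2 the thinned shares were 7.59%, 2.76% and 4.76%. Among the cDC1 they were 8.33% of 48 cells in YUMMER1.7, 16.7% of 60 in YUMM1.7 and 10.6% of 104 in naive. The cDC1 share was thus above that of the selected cells in YUMM1.7 and naive and below it in YUMMER1.7, with overlapping intervals in each library. A high share of dividing cells therefore did not set the selected cells apart from the cDC1. Within the selected cells at full depth, dividing cells were more common with Tbx21 than without, at 49.3% against 30.8% in YUMMER1.7, 42.5% against 26.6% in YUMM1.7 and 22.9% against 19.1% in naive. Cells with Tbx21 had more UMIs in each library, and the part of depth in this difference was not tested. Without the dividing cells, 329 YUMMER1.7, 591 YUMM1.7 and 364 naive cells were left, and 95 genes were higher in both tumour libraries, of which 50 were among the 194. Hmgb2 then had log2 ratios over naive of 0.30 and 0.36.

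Spon1, a spondin of the extracellular matrix, stood at 259 CPM in YUMMER1.7, 87.7 CPM in YUMM1.7 and 31.3 CPM in naive. Its log2 ratio was 3.05 [2.83 to 3.28] in YUMMER1.7 over naive, 1.49 [1.26 to 1.72] in YUMM1.7 over naive and 1.56 [1.46 to 1.67] in YUMMER1.7 over YUMM1.7. Without dividing cells the first ratio was 3.29 and the second 1.61. At 2000 UMIs per cell, Spon1 was detected in 33.7% of selected cells in YUMMER1.7, 13.2% in YUMM1.7 and 5.07% in naive. Other cell groups moved the same way, with 209, 170 and 31.9 CPM in the other cDC2, 269, 258 and 105 CPM in the monocytes and 137, 103 and 19.2 CPM in all other kept cells. The share that free RNA has in these values was not tested.

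The genes lower in both tumour libraries included a calcium channel subunit, a lectin, a peptide transporter and regulators of transcription and mRNA decay. Cacnb2, a beta subunit of voltage-gated calcium channels, stood at 33.0 CPM in YUMMER1.7, 88.9 CPM in YUMM1.7 and 243 CPM in naive. Its log2 ratio over naive was −2.88 in YUMMER1.7 and −1.45 in YUMM1.7, and the other cDC2 had 4.66, 18.5 and 104 CPM. Cd209d, of the DC-SIGN family, stood at 20.8, 29.8 and 85.3 CPM, and Slc15a2, a transporter of small peptides, at 31.1, 39.9 and 109 CPM. Both tumour libraries lay well below naive for each of these 3 genes, which their choice by rank fixes. Jdp2, a bZIP repressor, stood at 43.4, 49.9 and 126 CPM, and Zfp36l1, a factor of mRNA decay, at 184, 215 and 470 CPM. Btg1, which restrains proliferation, stood at 394, 390 and 825 CPM, while all other kept cells had 841, 782 and 956 CPM. Fam117b, Abtb2, Tmtc2 and Ear2 completed the 10, of which Ear2 belongs to a family of near-identical genes and was not lower in YUMMER1.7 among cells with all 3 selecting genes, at a log2 ratio over naive of 0.20.

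The lectins that mark cDC2 states also differed. Cd209a was detected at 2000 UMIs in 14.7% of selected cells in YUMMER1.7, 20.4% in YUMM1.7 and 32.2% in naive, and its log2 ratio over naive was −1.41 in YUMMER1.7, past 2-fold, and −0.74 in YUMM1.7. Clec10a was detected in 9.39%, 10.6% and 14.5% of thinned cells. Clec4a4 had a UMI in 55.8%, 48.6% and 24.8% of cells at full depth, and in 10.96%, 11.9% and 9.03% when thinned, where the intervals overlapped, while its level was 65.7, 60.8 and 32.9 CPM. Tbx21 was detected in 6.26%, 7.72% and 7.05% and Cd4 in 17.8%, 19.2% and 21.6% of thinned cells, also with overlapping intervals. Among the surface lectins and transcription factors shown here, the difference of Cd209a thus stood clear of counting error at even depth in both tumour libraries. It was not particular to the selected cells. The thinned shares with Cd209a had the same order in the other cDC2, at 2.53%, 14.5% and 27.2%, and in the monocytes, at 0.24%, 1.36% and 2.12%.

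**Figure D4:**
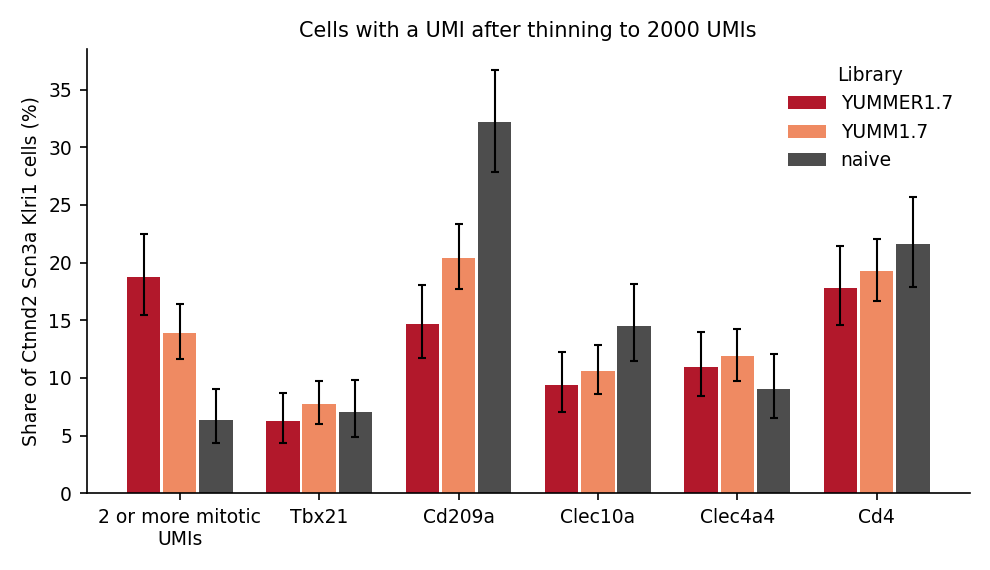
Share of Ctnnd2/Scn3a/Klri1 cells in percent, thinned to 2000 UMIs per cell, with 2 or more mitotic UMIs or with a UMI of Tbx21, Cd209a, Clec10a, Clec4a4 or Cd4, in the YUMMER1.7, YUMM1.7 and naive libraries. Bars start at 0 and lines are exact 95% binomial intervals; mitotic cells are fewest in naive at 6.39% and Cd209a cells most common there at 32.2%.

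Interferon response genes were highest in the YUMMER1.7 cells. All 28 genes of a type I interferon list had a higher value in YUMMER1.7 than in naive and than in YUMM1.7, 8 of them past 2-fold over naive, beside 4.62% of all genes, and 1 over YUMM1.7, beside 1.77%, and none fell. In YUMM1.7, 23 of 28 were above naive and none passed 2-fold. The list medians were log2 ratios of 0.68 in YUMMER1.7 over naive, 0.20 in YUMM1.7 over naive and 0.57 in YUMMER1.7 over YUMM1.7. Among all other kept cells of the libraries the medians were 0.94, 0.92 and −0.02, and among the other cDC2 0.51, 0.77 and −0.04. In the other cells the list was thus about as high in YUMM1.7 as in YUMMER1.7, while in the selected cells it was nearer to naive in YUMM1.7; this difference has no replicates and no test. In cells thinned to 2000 UMIs and selected again, the medians in the selected cells were 0.30 in YUMMER1.7 over naive, 0.26 in YUMM1.7 over naive and 0.02 in YUMMER1.7 over YUMM1.7.

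Single interferon genes showed the same order. Ifit3, which binds viral RNA complexes, stood at 56.9 CPM in YUMMER1.7, 31.1 CPM in YUMM1.7 and 17.8 CPM in naive, though reads may be shared with its close copy Ifit3b. Irf7, the transcription factor that amplifies type I interferon, stood at 76.2, 42.4 and 32.7 CPM. Rtp4, an interferon-induced chaperone, stood at 74.0, 48.6 and 31.6 CPM. Naive was lowest and YUMMER1.7 highest for each. Ifit1, Ifit2, Ifit3b, Oas2 and Ifi206 were the other members past 2-fold over naive in YUMMER1.7. Of 19 interferon gamma genes none rose past 2-fold over naive in either tumour library. In YUMM1.7 over naive 1 fell, where 2.43% of all genes fell, and in YUMMER1.7 over YUMM1.7 3 rose, where 1.77% of all genes rose. The chemokine Cxcl9 stood at 72.6, 25.5 and 51.1 CPM, and Cxcl10 at 60.9, 22 and 38.6 CPM, both lowest in YUMM1.7, while all other cells had 146, 141 and 105 CPM of Cxcl9.

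Between the tumour libraries, 207 of 11664 genes (1.77%) were higher in YUMMER1.7 and 77 (0.66%) lower. Ifitm1, an interferon-induced membrane protein, stood at 374 CPM in YUMMER1.7, 112 CPM in YUMM1.7 and 71.3 CPM in naive, for a log2 ratio of 1.73 [1.64 to 1.83] over YUMM1.7. Socs3, an inhibitor of cytokine signalling, stood at 72.9, 31.4 and 27.6 CPM. All other kept cells had the same order for both, with 315, 73.4 and 44.8 CPM of Ifitm1 and 83.6, 51.2 and 37.5 CPM of Socs3. Spon1, Hist1h2ap, the early response gene Ier3 and the phospholipid transfer protein Pltp also rose past 2-fold. Clec4n, the fungal receptor Dectin-2, stood at 123, 67.1 and 37.2 CPM, with a log2 ratio of 0.88 over YUMM1.7 and 1.73 over naive. Zbp1, a sensor of nucleic acids, stood at 59.5, 31.7 and 33.9 CPM.

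Of the 8 genes that the rule named in the other direction, Cacnb2 alone was past 2-fold, at a log2 ratio of −1.43 in YUMMER1.7 over YUMM1.7. Dpp10, an accessory subunit of potassium channels, stood at 75.4 CPM in YUMMER1.7, 133 CPM in YUMM1.7 and 274 CPM in naive, and was past 2-fold over naive in both tumour libraries. Fkbp5, a glucocorticoid-induced co-chaperone, stood at 38.3, 66.6 and 109 CPM, and the efflux pump Abcb1b at 47.2, 81.7 and 117 CPM. Each was graded, with YUMM1.7 between YUMMER1.7 and naive. Cd209a, Scmh1, Bbs9 and Pot1b had log2 ratios of −0.66, −0.71, −0.56 and −0.58.

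Few genes of maturation and antigen presentation passed the fold limit, while most maturation genes lay below naive by less than that. Of 13 MHC class II genes and 15 MHC class I genes none passed 2-fold in any of the 3 comparisons, and the class II medians were −0.02 in YUMMER1.7 over naive and −0.04 in YUMM1.7 over naive. Of 20 maturation genes 1 fell in YUMMER1.7 over naive, where 2.52% of all genes fell, and of 19 tested none passed in YUMM1.7. The gene that fell was the activation marker Cd83, at 410 CPM in YUMMER1.7, 563 CPM in YUMM1.7 and 901 CPM in naive. Below naive lay 16 of 20 maturation genes in YUMMER1.7 and 16 of 19 in YUMM1.7, with list medians of −0.28 and −0.30. The medians were −0.32 and −0.24 in the other cDC2 and −0.43 and −0.30 in all other kept cells. Among 22 immediate early genes 1 rose and 2 fell in YUMMER1.7 over naive, where 4.62% of all genes rose and 2.52% fell. In YUMM1.7 over naive none rose and 1 fell, where 2.55% of all genes rose and 2.43% fell. Below naive lay 16 of the 22 in YUMMER1.7 and 19 in YUMM1.7, with list medians of −0.20 and −0.44. The medians were −0.06 and −0.42 in the other cDC2 and −0.08 and −0.16 in all other kept cells. Egr1, an early response transcription factor, stood at 52.3, 53.6 and 112 CPM. Ccl5, a chemokine of T cell recruitment, stood at 96.1, 108 and 284 CPM, and all other cells, at 1604, 1541 and 2735 CPM, were also highest in naive. Plac8, a gene of monocytes and interferon-exposed cells, stood at 1320, 849 and 497 CPM, and all other cells had 2741, 1878 and 495 CPM.

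**Figure D5:**
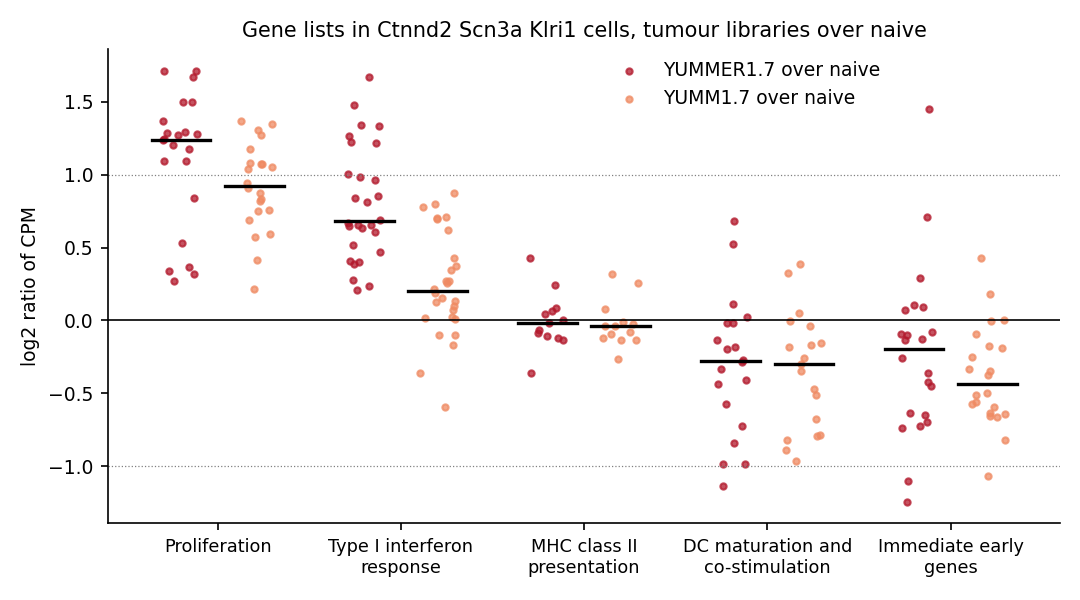
Log2 ratios of the Ctnnd2/Scn3a/Klri1 cells in YUMMER1.7 over naive and YUMM1.7 over naive for the genes of 5 lists. Points are genes, black bars are list medians and dotted lines mark 2-fold; the proliferation medians are 1.24 and 0.93, the type I interferon medians 0.68 and 0.20, and the MHC class II medians −0.02 and −0.04.

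Single members of lipid, stress and adhesion lists passed 2-fold. Fabp5, a fatty acid binding protein, stood at 849 CPM in YUMMER1.7, 588 CPM in YUMM1.7 and 345 CPM in naive. Dcstamp, a fusion protein of myeloid cells, stood at 6.20, 4.74 and 24.5 CPM, and cells with Lpl or Dcstamp were 1.37%, 0.95% and 3.74% of thinned cells. Of 16 lipid genes 2 rose and 2 fell past 2-fold in YUMMER1.7 over naive, where 4.62% of all genes rose and 2.52% fell. Of 11 heat shock genes 2 rose there, the near-identical copies Hspa1a and Hspa1b, at 327, 211 and 138 CPM and 275, 208 and 133 CPM. None of 18 hypoxia and glycolysis genes passed 2-fold over naive in either tumour library. Among 15 pan-dendritic-cell genes 1 rose in YUMMER1.7, Id2, a transcriptional inhibitor needed for dendritic cell development, at 371, 268 and 184 CPM, a log2 ratio over naive of 1.01. Of 12 catenin and cadherin genes, the partners of delta-catenin, 1 rose and 1 fell in YUMMER1.7 over naive. Ctnna1, the alpha-catenin that links cadherins to actin, stood at 148, 171 and 322 CPM, and Cdh1, E-cadherin, at 13.5, 4.82 and 3.32 CPM.

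The series also holds 1 library per condition of a fraction depleted of CD45-positive cells, in which the same selection found cells with plasmacytoid genes. It took 21 cells from YUMMER1.7, 39 from YUMM1.7 and 27 from naive, and Siglech, the receptor of plasmacytoid dendritic cells, had a UMI in 85.7%, 87.2% and 81.5% of them. Ly6d, a surface protein of lymphoid progenitors and plasmacytoid cells, stood at 3888, 3322 and 2847 CPM, and Tcf4, the transcription factor that specifies plasmacytoid dendritic cells, at 3569, 3221 and 3312 CPM. The gut-homing receptor Ccr9 stood at 517, 530 and 562 CPM. Klri1 was detected in 9.52%, 10.3% and 11.1% of these cells and Tbx21 in 4.76%, 2.56% and 3.70%, so that the selection there rested mainly on Ctnnd2 and Scn3a.

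Against the other cDC2 of the depleted fraction, 179 of 4164 genes (4.3%) were higher and 109 (2.62%) lower by edgeR's quasi-likelihood test with Benjamini-Hochberg adjustment and the library as block. That gate leaves out cells with Siglech, which most of the selected cells carried, so a difference in plasmacytoid genes was fixed by the gates and is not given. Dscam, at −0.52 (adjusted p = 0.825, edgeR), and Adam23, at −0.77 (adjusted p = 0.866, edgeR), were not called. The other cDC2 there were 6, 3 and 3 cells in YUMMER1.7, YUMM1.7 and naive, and carried the stromal chemokine Cxcl13 at 10641, 21554 and 0 CPM. Their Dscam stood at 72.6, 0 and 994 CPM, against 88.6, 29.8 and 265 CPM in the selected cells, and their Adam23 at 0, 0 and 2462 CPM, against 53.2, 3.97 and 249 CPM. The comparison thus rests on 12 cells, and their sums held a stromal gene in the tumour libraries. Leaving out 1 library moved the counts to between 66 and 366 higher and between 56 and 527 lower.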

How the data were processed

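Single-cell 3′ RNA libraries were counted as UMIs per gene and cell barcode. The deposited matrices hold these raw UMI counts, 1 matrix per library. Per the submitters' processing notes the authors used Cell Ranger 8.0.1 and the build mm10, and per the file headers version 8.0.1 made the enriched matrices (32285 genes) and 7.0.0 the depleted ones (54752 genes), so the fractions were not compared. How cells were called and multimapping reads handled is not given in the sources used here.

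UMIs were summed over the cells of a group in a library and given as CPM of that sum, with no correction for free RNA or between libraries. The 95% intervals are Clopper-Pearson for shares and conditional binomial (exact) for ratios. Cells were thinned to 2000 UMIs without replacement, and shallower cells were left out: of the selected cells 511 of 513, 842 of 852 and 454 of 455 remained in YUMMER1.7, YUMM1.7 and naive, and of the other cDC2 79 of 83, 145 of 152 and 147 of 153. Python 3.11.15, numpy 2.4.6, scipy 1.17.1, pandas 2.3.3 and scanpy 1.11.5 (Scrublet) were used. Gene positions came from GENCODE vM21 (GRCm38).

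Named genes were those with at least 50 CPM in the higher group and the largest ratios by the interval bound nearest 0: 15 per direction against other cDC2, 10 per direction for both tumours over naive and 8 per direction between the tumours. Between conditions the selected cells also needed 0.5 times the CPM of all other kept cells in the higher library. Gate genes, receptor segments, mitochondrial, ribosomal, haemoglobin, sex-linked and unnamed genes were left out. Members of 36 gene lists, with 436 of their 440 genes in the files, were named as examples. Some genes that the rule names are not reported here. The members and lists were chosen with earlier results of these data known.

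In the CD45-depleted fraction the same selection was made and set against other cDC2 with edgeR 4.0.16 (quasi-likelihood, Benjamini-Hochberg adjustment, library as block) in R 4.3.3, and with DESeq2 1.42.0. The blocks are the libraries from which both groups of cells came. Alternatives changed the number of selecting genes, the cell filter, doublets, depth, scaling, the count floor, NK genes and the comparison gate.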

Additional observations from a re-analysis of the deposited data

Results flagged for a closer look

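Ear2, a ribonuclease gene of the eosinophil-associated family, moved in opposite directions in the Ctnnd2/Scn3a/Klri1 cells and in the monocytes of the same libraries. In the selected cells it stood at 58.1 CPM in YUMMER1.7, 59.0 CPM in YUMM1.7 and 132 CPM in naive, with log2 ratios over naive of −1.18 in YUMMER1.7 and −1.16 in YUMM1.7. In the monocytes the ratios were 0.91 and 0.52. The difference between the cell groups was not tested, since each condition has 1 library. Among selected cells with all 3 of the genes the YUMMER1.7 ratio was 0.20, and among cells thinned to 2000 UMIs it was 0.28. Ear2 belongs to a family of near-identical genes, so its counts are uncertain.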

How the results depend on the processing

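The share of selected cells over naive was 1.97 in YUMM1.7 and 1.25 in YUMMER1.7 after thinning, and 2.30 in YUMM1.7 over cells without B and T cell genes. Genes higher in both tumour libraries, 194, numbered 296 with all 3 genes required, 39 after thinning, 96 with a floor of 100 UMIs, 565 with no floor and 95 without dividing cells. Genes lower in both, 133, numbered 43 after thinning, 65 with a floor of 100 and 487 with no floor. Between the tumours, the 207 higher genes were 92 with all 3 genes, 48 after thinning, 61 with a floor of 100 and 1162 with no floor, and the 77 lower genes were 118, 12 with a floor of 100 and 479 with no floor. Against the other cDC2, the 231 higher genes were 12 after thinning, 128 with a floor of 100 and 139 without dividing cells, and the 242 lower genes were 42, 121 with a floor of 100, 501 with no floor and 86 with the Cd209a gate. Thinning and a higher floor leave fewer genes to compare; the cause of the other differences was not tested. Turned round were Hist1h3c in YUMM1.7 over naive without dividing cells (−0.85), Ear2 in YUMMER1.7 over naive (0.20 with all 3 genes, 0.28 thinned) and, with the Cd209a gate, Atxn1 in naive (0.52), Pakap in YUMM1.7 (1.69) and naive (0.26), Apol7c (0.85, 0.080 and 0.77 over the libraries), Klra2 (0.10), Fgd4 (0.15) and C3 (0.15) in YUMMER1.7, and Ankrd33b (0.62, 0.67 and 0.52). TMM scaling, doublet removal, 1000 UMIs with 5% mitochondrial UMIs, removal of cells with NK genes and, chosen like the dividing-cell setting after seeing the data, removal of cells with Siglech changed none of the shares and counts named here by over 1.5 times.

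In the depleted fraction, the 179 genes higher by edgeR were 301 with no filter, 271 with no replicate block, 191 by DESeq2 and 66 to 366 with 1 library left out, and the 109 lower genes were 453, 142, 121 and 56 to 527. Without naive the counts were 366 and 527, without YUMM1.7 114 and 63, and without YUMMER1.7 66 and 56. The Cd209a gate held 1 cell there and was not run.

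No condition has a replicate library, so intervals cover counting error alone and between-mouse spread is unknown. The other cDC2 gate of 83 YUMMER1.7 cells limits the ratios of low genes, and cells of low depth were missed by the selection.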

Other observations

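NK genes were low within the Ctnnd2/Scn3a/Klri1 cells, and their levels differed between the libraries. In each library 2 of 10 had a UMI in at least 10% of the selected cells. Among all other kept cells 2, 2 and 4 did in YUMMER1.7, YUMM1.7 and naive. The list summed to 148 CPM in YUMMER1.7, 83.7 CPM in YUMM1.7 and 171 CPM in naive, against 420, 546 and 891 CPM in all other kept cells. Whether RNA of NK cells has a part in these values was not tested. Of 9 NK genes, 5 rose past 2-fold in YUMMER1.7 over YUMM1.7, where 1.77% of all genes did, and none fell. In YUMM1.7 over naive 1 rose and 6 fell, where 2.55% of all genes rose and 2.43% fell. Of 8 in YUMMER1.7 over naive none rose and 1 fell, where 4.62% of all genes rose and 2.52% fell. The granzyme Gzma stood at 57.7 CPM in YUMMER1.7, 14.4 CPM in YUMM1.7 and 32.2 CPM in naive, and all other kept cells had 135, 158 and 187 CPM. The adapter Bank1, known from B cell receptor signalling, stood at 41.4, 30.7 and 9.62 CPM in the selected cells.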
